A study of Mus musculus with 4 samples.

Results

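Selenoproteins are the proteins that carry selenocysteine, the selenium analogue of cysteine. The 10 genes described here are Selenop, Gpx1, Gpx3, Gpx4, Txnrd1, Selenow, Selenok, Selenos, Selenof and Sephs2, chosen by symbol from 18526 genes listed in either of the 2 deposited tables. They were picked with the read counts of the same knockout and control libraries already known, so their levels and differences are given as a description. All 10 are listed in both tables, and all 10 passed the filter on low counts. RNA came from microglia, brain-resident macrophages, sorted by fluorescence from the cortex (telencephalon in the series' design) of C57BL/6 mice at embryonic day 14. The knockout group was Arid1acKO, a conditional deletion of Arid1a, whose product binds DNA within the BAF complex that remodels chromatin. The controls were Arid1afl/fl, mice with the floxed allele. The driver that deletes the allele, and whether each sample was 1 embryo or a pool, were not given in the sources used here.

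Of the 4 samples in the labels, 3 libraries were analysed, knockout replicate 2 (17262261 counted reads), control 5 (18608979) and control 6 (13774075). Knockout replicate 1 was not analysed here. The knockout therefore has no replicate error, and its intervals cover counting error only. The labels do not tie the controls to different animals, and the spread behind each p-value is only that of these samples and may be technical. Arid1a itself (chromosome 4, 133679008 to 133756769) had 68.8 CPM (counts scaled to library size and TMM factors) in the knockout, with 109 in control 5 and 130 in control 6. It was lowest in the library labelled knockout, with a log2 fold change of -0.80 (SE 0.41, edgeR adjusted p = 0.901). Counts cover the whole gene, and reads from exons outside a floxed part can persist.

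In mammals selenocysteine is inserted at UGA, a codon that otherwise ends translation. The ribosome reads it through with the help of a hairpin in the 3′ end of the mRNA, the SECIS element, and of proteins that bind it. Most selenoproteins are redox enzymes in which the selenium atom does the chemistry: glutathione peroxidases remove peroxides and thioredoxin reductases keep thioredoxin reduced. Selenop is different, since it is secreted and carries selenium in plasma to the brain and other organs, and macrophages as well as liver cells make it. When selenium is scarce, mRNAs with a UGA upstream of the last exon junction can be degraded as if the codon were premature.

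The UGA codons show what the members share at the level of sequence. Each line below gives coding sequence around the UGA (for Selenop, its 5′-most) from the GENCODE M21 transcripts on GRCm38, 5′ to 3′ on the coding strand. Each starts 18 bases before the UGA, runs to 9 bases after it or to the end of the stop codon, and has the UGA, written TGA, in capitals.
Selenop: gctcttcttcaagccagcTGAtacttgtgt
Gpx1: gagaatgtcgcgtctctcTGAggcaccacg
Gpx3: gtcaacgtagccagctacTGAggtctgaca
Gpx4: accaacgtggcctcgcaaTGAggcaaaact
Txnrd1: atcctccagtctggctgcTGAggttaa
Selenow: gtcgtgtattgtggagctTGAggctataag
Selenok: cctccaatggctggtggaTGAggaaggtaa
Selenos: ggcccatcatctggcggcTGAaactaa
Selenof: atccttgaagtctgcggaTGAaaattgggg
Sephs2: ttctccggcatgaagggcTGAggctgcaag

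In 7 of the 10 the base after the UGA is G. The place of the codon in the protein differs. In Selenow it is residue 13 of 88, in Gpx1 residue 47 of 201 and in Sephs2 residue 63 of 452, all near the start. In Txnrd1 and Selenos it is the last residue but 1 (498 of 499 and 189 of 190), and the sequences printed for these end with the true stop codon. Selenop alone among the 10 has more than 1 such codon, 10 in a protein of 380 residues. The 7 nearest the 3′ end fall in a stretch of 180 coding bases (chr15:3279519-3279698, plus strand, all in the last exon), shown because this gene had the largest difference of the 10, with the in-frame UGA codons in capitals.
Selenop UGA-rich stretch: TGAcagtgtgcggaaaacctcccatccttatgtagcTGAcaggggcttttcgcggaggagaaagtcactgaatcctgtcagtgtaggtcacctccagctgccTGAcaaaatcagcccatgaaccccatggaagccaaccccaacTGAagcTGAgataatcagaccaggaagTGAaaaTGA

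Selenop mRNA was far lower in the knockout library than in either control, Selenow was about double, and Gpx4 and Sephs2 were higher by smaller amounts. Gpx3, Selenok, Selenos and Selenof differed little or lay among the controls. Of the 10, the knockout library was the highest in 5, the lowest in 3 and between the controls in 2. Over the 15236 genes tested, the knockout was the highest library in 38.0% and the lowest in 31.1%. The median log2 fold change was 0.20 over the 10 and 0.05 over all genes tested. None of the 10 was called by edgeR's quasi-likelihood test over all genes at an adjusted p of 0.05, where 0.0394% of genes were called, 0.0131% higher and 0.0263% lower in the knockout (2 of the 10, Selenop and Selenow, at an unadjusted p under 0.05, which held for 6.0% of all genes, and 1 by DESeq2, Selenop, where 1.41% of genes were called).

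**Figure D1:**
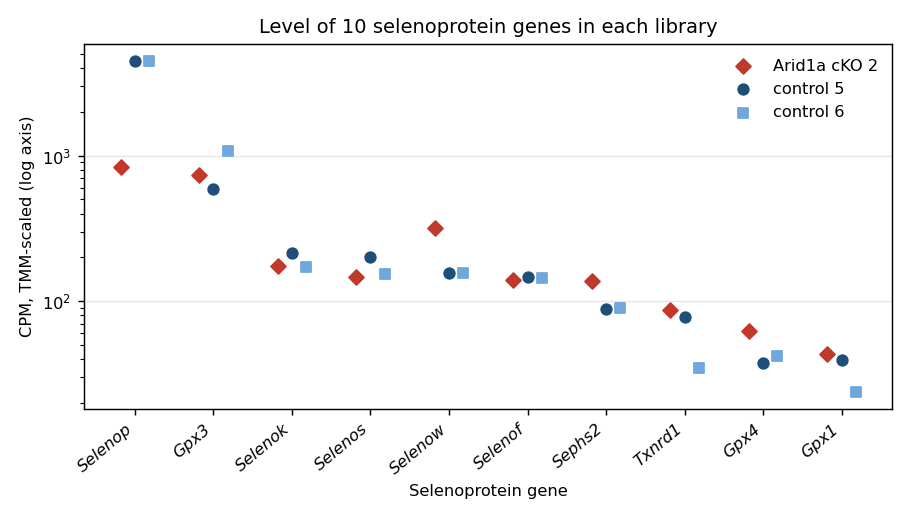
TMM-scaled CPM (log axis) of the 10 selenoprotein genes in the knockout library (diamonds) and controls 5 and 6 (circles and squares), 1 point per library, ordered by the control mean. Selenop stands at 836 CPM in the knockout against 4503 and 4508 in the controls, and Selenow at 321 against 155 and 156.

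Selenop (ENSMUSG00000064373, chromosome 15, 3268547 to 3280508, plus strand) had 15270 reads in the knockout, with 80642 in control 5 and 60860 in control 6. Scaled for depth, this was 836 CPM in the knockout (95% Poisson interval, exact, 822 to 849), beside 4503 in control 5 and 4508 in control 6. The controls nearly coincided, and the knockout was 5.39-fold lower than their mean. The fitted log2 difference was -2.43 (SE 0.33). Each control taken alone gave the same -2.43. In the fit over all genes the adjusted p was 0.0773 with edgeR and 3.26e-11 with DESeq2. With edgeR the adjusted p was 0.0247 when only genes at 5 CPM or more in 2 libraries were kept, so the call rests on the test and on the filter. Because the gene was chosen on this contrast, these values describe it and test nothing. Among the 10 it was the only gene 4-fold or more below both controls, which held for 3.15% of the genes tested (7.56% were 2-fold or more below both). Of the 16 tested genes with a mean CPM at least as high, itself included, Selenop had the lowest log2 fold change.

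A gene on the opposite strand, Ccdc152, covers 15.4% of the exon bases of Selenop, and the library kit does not mark strand. Ccdc152 had 19 reads in the knockout, with 59 in control 5 and 109 in control 6, which is few beside those of Selenop. Its log2 fold change was -2.44 (SE 1.39). The effect of the shared bases on the count of Selenop was not tested. Because the RNA is from bulk sorted cells, fewer cells of a type and less RNA per cell cannot be told apart. Markers of microglia were lower in the knockout library too. Of 10 markers it was the lowest library in 9, beside 31.1% of all genes tested. The summed level of the markers was 15157 CPM against 20552 in control 5 and 29910 in control 6. Siglech, a sialic acid-binding lectin, fell from 918 and 1057 CPM in the controls to 58.3 (log2 fold change -4.08, SE 0.42, edgeR adjusted p = 0.0324). The single markers given here were chosen after their values were seen.

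Border-associated macrophages also make Selenop, and their markers were mixed. Of the 9 markers tested the knockout was the highest library in 4, the lowest in 2 and between in 3. Over all genes tested it was the highest in 38.0% and the lowest in 31.1%. The summed level of the markers was 639 CPM against 696 and 1062. Lyve1 and Cd163, defining markers of these cells, had 0 reads in control 5, and Lyve1 had 122 reads in the knockout library and 13 in control 6. Mrc1 had 243 CPM in the knockout, with 242 in control 5 and 216 in control 6. The 3 listed plasma-protein genes of the liver summed to 9.25 CPM in the knockout and 12.2 in control 5, with control 6 slightly higher. The part of these cell types in the lower Selenop was not tested.

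Among glutathione peroxidases, Gpx4 reduces peroxidised lipids inside membranes and so protects cells from ferroptosis. Gpx4 (ENSMUSG00000075706, chromosome 10, 80047166 to 80056439) had 62.1 CPM in the knockout, with 37.2 in control 5 and 41.6 in control 6. The knockout lay above both controls, 1.57-fold over their mean of 39.4 ± 3.10 CPM (SD, n = 2), with a log2 fold change of 0.65 (SE 0.43). The annotation names 1 pseudogene copy of Gpx4, by a symbol ending in -ps, and copies under other names were not sought for any gene. The sources used here do not give how reads that map to several places were counted.

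Gpx1 (ENSMUSG00000063856, chromosome 9, 108338903 to 108340343) is the soluble peroxidase of the cytosol. It had 43.0 CPM in the knockout, with 39.6 in control 5 and 23.6 in control 6. The knockout was the highest library, yet the controls were farther from each other than control 5 was from the knockout (log2 fold change 0.44, SE 0.52). Over control 5 alone the log2 ratio was 0.12, and over control 6 alone it was 0.86. Gpx1 is abundant in red cells, whose 7 listed markers summed to 46.8 CPM in the knockout, with 38.1 in control 5 and 53.9 in control 6.

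Gpx3 (ENSMUSG00000018339, chromosome 11, 54902453 to 54910377) encodes the secreted peroxidase of plasma and extracellular fluid. Its level was 737 CPM in the knockout, with 594 in control 5 and 1079 in control 6. The knockout lay between 2 controls that lay far apart, and the log2 fold change was -0.18 (SE 0.42), with a positive ratio over control 5 (0.31) and a negative one over control 6 (-0.55).

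Txnrd1 (ENSMUSG00000020250, chromosome 10, 82833951 to 82897712) is the cytosolic thioredoxin reductase. It had 86.6 CPM in the knockout, with 77.9 in control 5 and 34.9 in control 6. Nearly all of its log2 fold change of 0.62 (SE 0.53) came from control 6 (1.31 over it, 0.15 over control 5). Sephs2 (ENSMUSG00000049091, chromosome 7, 127271879 to 127274055, minus strand) makes selenophosphate, the selenium donor for selenocysteine synthesis, and is itself a selenoprotein. Its level was 137 CPM in the knockout, with 87.9 in control 5 and 90.3 in control 6. Here the controls nearly coincided and the knockout stood 1.54-fold above their mean (log2 fold change 0.62, SE 0.37). A gene on the opposite strand, Gm44729, covers 36.4% of the exon bases of Sephs2 and is listed in neither table.

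Selenow (ENSMUSG00000041571, chromosome 7, 15917208 to 15922402, minus strand) encodes a small cytosolic redox protein, and its mRNA is known for its response to selenium supply. It had 5859 reads in the knockout, with 2776 in control 5 and 2101 in control 6. This was 321 CPM in the knockout (95% Poisson interval, exact, 312 to 329), 155 in control 5 and 156 in control 6. The knockout was 2.06-fold above a control mean of 155 ± 0.444 CPM (SD, n = 2), and the fitted log2 difference was 1.05 (SE 0.35). It was the only gene of the 10 at 2-fold or more above both controls, which held for 9.84% of the genes tested. In the fit over all genes it was not called (adjusted p = 0.644 with edgeR and 0.196 with DESeq2).

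Selenok, Selenos and Selenof belong to the endoplasmic reticulum. Selenok (ENSMUSG00000042682) lies on chromosome 14 at 29968308 to 29975074, Selenos (ENSMUSG00000075701) on chromosome 7 at 66079649 to 66089405 and Selenof (ENSMUSG00000037072) on chromosome 3 at 144570304 to 144597680. Selenok, a membrane protein that supports protein palmitoylation and calcium flux in immune cells, had 175 CPM in the knockout, with 214 in control 5 and 172 in control 6. Selenos, a member of the machinery that exports misfolded proteins for degradation, had 146 CPM in the knockout, with 201 in control 5 and 153 in control 6. For both genes the knockout was closer to control 6 than the controls were to each other. Selenof, a partner of the glycoprotein folding sensor Uggt1, had 140 CPM in the knockout against 146 and 144 in the controls. Log2 fold changes were -0.14 (SE 0.37) for Selenok, -0.28 (SE 0.39) for Selenos and -0.05 (SE 0.37) for Selenof. GENCODE M21 names 6 pseudogene copies of Selenok, so its count is uncertain.

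**Figure D2:**
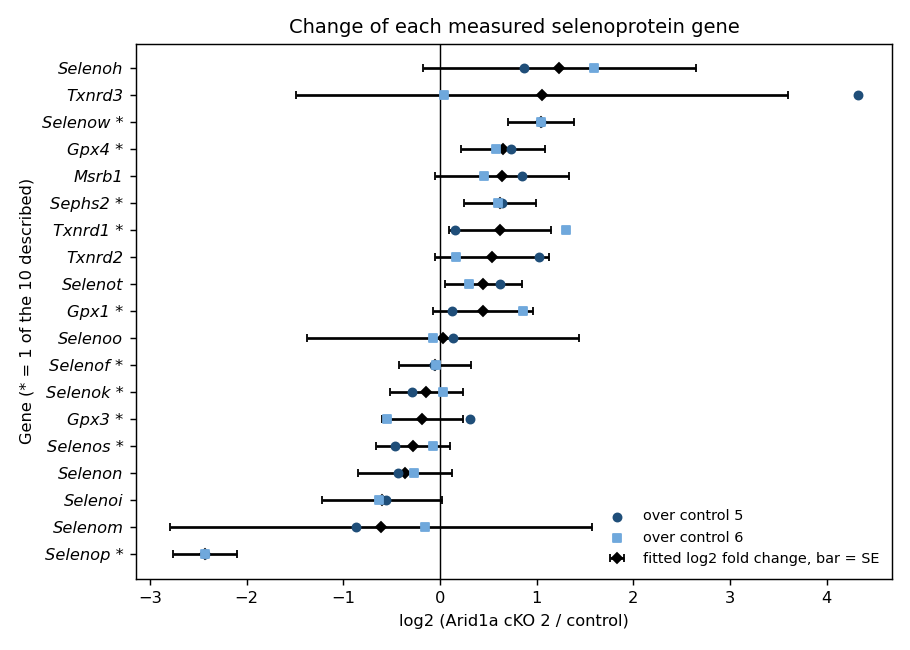
Fitted log2 fold change with its SE for each of the 19 selenoprotein genes tested (diamonds and bars), with the log2 ratio over control 5 (circles) and over control 6 (squares). Selenop stands apart at -2.43, Selenow is at 1.05 with the circle and the square together, and for Txnrd1, Gpx3 and Txnrd3 they lie far apart.

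Of the 14 other selenoprotein genes of the mouse, 9 were listed and tested. Gpx2, Dio1, Dio2, Dio3 and Selenov were listed in neither table. Of the 9, 5 were highest in the knockout (Txnrd2, Txnrd3, Selenoh, Selenot and Msrb1), 3 were lowest there (Selenoi, Selenom and Selenon), and Selenoo lay between the controls. None was called (edgeR quasi-likelihood test over all genes, 0 also at an unadjusted p under 0.05 and 0 by DESeq2), and the median of their log2 differences came to 0.45 (0.62 against control 5, 0.05 against control 6). Over all genes tested the median was 0.05 (0.14 against control 5, 0.03 against control 6). The best measured of the 9 was Selenot, an oxidoreductase of the endoplasmic reticulum. It had 104 CPM in the knockout, with 67.7 in control 5 and 84.6 in control 6 (log2 fold change 0.45, SE 0.40). Msrb1, which repairs oxidised methionine, had 14.2 CPM against 7.87 and 10.4 (0.64, SE 0.70). Txnrd2, the mitochondrial thioredoxin reductase, had 28.7 against 14.1 and 25.6 CPM. Selenon, a calcium-handling protein of the endoplasmic reticulum, had 29.2 against 39.6 and 35.3 CPM, and Selenoi, a phospholipid synthesis enzyme, had 12.6 against 18.7 and 19.6 CPM. Selenoh, Selenom, Selenoo and Txnrd3 had at most 82 reads in any library, and Txnrd3 had 0 in control 5 against 42 in the knockout library and 30 in control 6.

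Levels of different genes were compared as CPM per kilobase of exon. This takes reads to be counted equally well in every gene, which was not tested. It is less sure for Gpx4, Selenok and Selenot, which have named pseudogene copies, and for Sephs2, Selenoo and Selenop. A gene on the opposite strand covers 36.4% of the exon bases of Sephs2, 26.7% of those of Selenoo and 15.4% of those of Selenop. In both controls the order began Selenop, Gpx3, Selenow, Selenos, Selenok, Sephs2. In control 5 the levels of these were 1584, 328, 211, 136, 113 and 40.4 CPM per kilobase, and in control 6 they were 1586, 595, 211, 104, 90.9 and 41.5. On this exon length the control ranges of Selenos and Selenok overlapped, though Selenos was above Selenok within each library (98.8 and 92.6 in the knockout). The order of Selenof (25.1 and 24.8), Gpx4 (21.6 and 24.1) and Gpx1 (27.5 and 16.4) differed between the controls. Txnrd1 was lowest of the 10 in every library, at 12.2 in the knockout and 4.92 in control 6. In the knockout library the order began with Selenow at 436, Gpx3 at 407 and Selenop at 294 CPM per kilobase.

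Selenop made up 62.3% of the summed level per length of the 19 selenoprotein mRNAs in control 5 and 57.6% in control 6, but 18.9% in the knockout library. These shares also take reads to be counted equally well in every gene. The sum was 2544 and 2753 CPM per kilobase in the controls and 1556 in the knockout library. Without Selenop it was 959 in control 5, 1167 in control 6 and 1262 in the knockout library, so the other 18 together were highest in the knockout. Selenow alone stood at 436 in the knockout library against 211 in each control, a wider gap than that of the sum over control 6. The place of the sum above control 6 thus rested on Selenow, and it does not show a rise shared by the 18. Weighted by the number of UGA codons in each mRNA, Selenop held 94.3% and 93.1% of all selenocysteine codons in the controls and 70.0% in the knockout library. With the length of the 1 coding transcript used for the sequences in place of all exon bases, a choice made after the data were seen, its share per length was 65.6%, 61.5% and 21.8% in control 5, control 6 and the knockout library. On that length Gpx3, at 463 CPM per kilobase, stood ahead of Selenow, at 436, in the knockout library. Selenof depended most on the length used, since its transcript is 1514 bases. It then had 96.3 and 95.2 CPM per kilobase in the controls, ahead of Sephs2 and clear of Gpx4 (38.8 and 43.4) and Gpx1 (at most 36.9). The ranges of Selenos (169 and 129) and Selenok (128 and 102) then no longer overlapped, by a small margin.

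**Figure D3:**
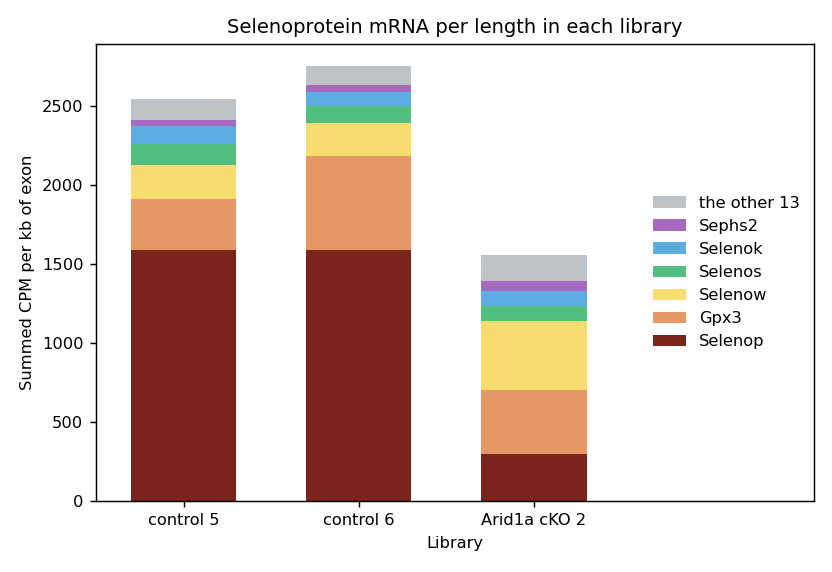
Summed CPM per kilobase of exon of the 19 selenoprotein mRNAs, stacked by gene, in controls 5 and 6 and the knockout library, 1 bar per library with no error. The Selenop segment is 294 in the knockout bar against 1584 and 1586 in the controls, while the Selenow segment is taller in the knockout bar (436 against 211 and 211).

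The place of the UGA in the mRNA, which the choice of genes did not use, was set beside the changes. In 7 of the 10 the 5′-most UGA lies before the last exon junction. The distance from the codon to that junction was 357 bases in Selenop, 342 in Gpx4, 243 in Selenow, 240 in Gpx3, 105 in Gpx1, 78 in Selenof and 5 in Selenok. In Txnrd1 and Selenos the UGA is in the last exon, and Sephs2 has no intron. The longest distances belong to genes with unlike changes, Selenop at -2.43 and Gpx4 and Selenow at 0.65 and 1.05. The genes whose UGA is not followed by a junction changed by 0.62 (Txnrd1 and Sephs2) and -0.28 (Selenos). With 10 genes chosen on these changes, no relation was tested.

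Genes that make and insert selenocysteine were described from a list of 16, all tested. The list also holds broader RNA and tRNA factors such as Ctu1, Ctu2, Eif4a3 and Elavl1, and its counts include them. They are to be read beside all genes tested, where the knockout was the highest library in 38.0% and the lowest in 31.1%. In the list of 16 the counts were as follows. The knockout was the highest library in 9 and the lowest in 4, the median log2 difference being 0.14, and none was called by edgeR over all genes (1 at an unadjusted p under 0.05, against 6.0% of all genes) or by DESeq2. Sephs1, the paralog of Sephs2 that lacks selenocysteine, had 123 CPM in the knockout, with 253 in control 5 and 157 in control 6 (log2 fold change -0.74, SE 0.43, edgeR adjusted p = 0.950). It thus lay on the other side of the controls from Sephs2, but closer to control 6 than the controls were to each other. Scly, which recovers selenium from free selenocysteine, had 12.8 against 34.3 and 18.7 CPM (-1.06, SE 0.64, adjusted p = 0.956). Ncl, a nucleolar protein that also binds SECIS elements, had 861 against 634 and 512 CPM.

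Ctu1 and Ctu2, which together thiolate the wobble base of some tRNAs, had 311 reads in the knockout against 16 and 76, and 409 against 39 and 118. Both were highest in the knockout library, while the controls differed several-fold from each other (adjusted p = 0.854 and 0.823 with edgeR), and another gene on the opposite strand covers 47.3% of the exon bases of Ctu2. The SECIS-binding factors Secisbp2 (30.1 CPM against 29.3 and 38.1) and Secisbp2l (74.4 against 65.3 and 66.7), and the elongation factor Eefsec (68.0 against 75.5 and 77.2), named after their values were seen, had fitted log2 fold changes of -0.16, 0.17 and -0.17. Of the receptors that take up Selenop, Lrp8 had 6.24 CPM in the knockout, with 4.69 in control 5 and 9.63 in control 6. Lrp1, a broad endocytic receptor, had 614 against 277 and 594 CPM (adjusted p = 1.00), and Lrp2 was listed in neither table.

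**Figure D4:**
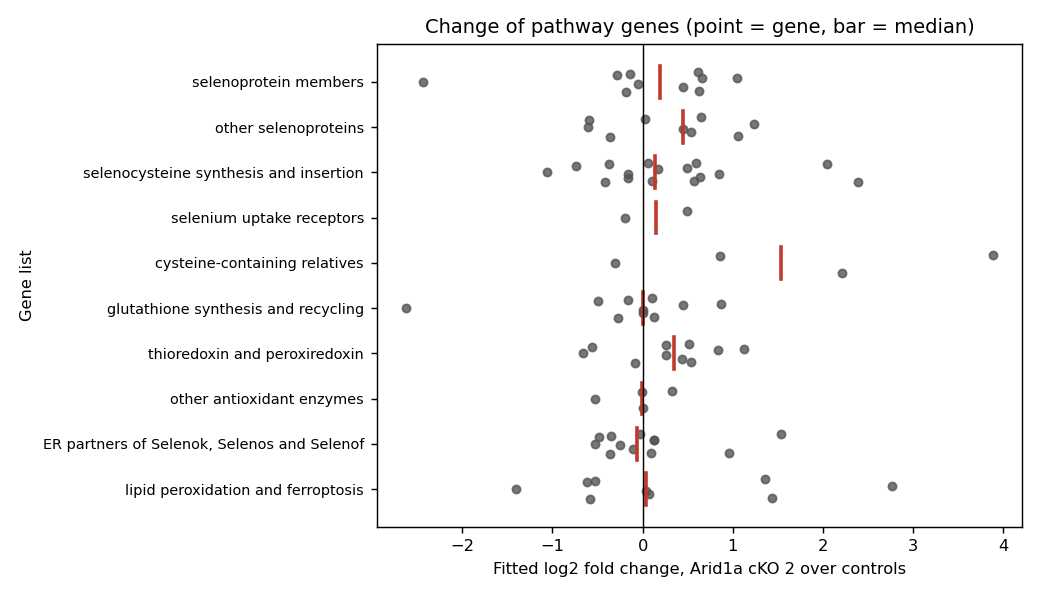
Fitted log2 fold change of each tested gene (points) and the median (bars) for the selenoproteins and 8 related gene lists. Medians lie between -0.07 and 0.45 except for the 4 cysteine-containing relatives at 1.53, where Gpx7 and Gpx8 had 0 reads in control 5.

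Antioxidant systems that work beside selenoproteins were read from further lists, and none of their members was called by edgeR over all genes. Thioredoxins and peroxiredoxins were the highest in the knockout library in 7 of 10, and the median log2 difference was 0.35 (1 at an unadjusted p under 0.05, against 6.0% of all genes, and 0 by DESeq2). Prdx1, an abundant cytosolic peroxidase recycled by thioredoxin, had 1060 CPM in the knockout, with 606 in control 5 and 582 in control 6 (log2 fold change 0.84, SE 0.32, adjusted p = 0.773). Txn1, the substrate of Txnrd1, had 51.9 against 38.4 and 34.1 CPM. Prdx3, the mitochondrial family member, went the other way, with 49.5 against 82.1 and 74.5 CPM.

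Glutathione synthesis and recycling genes had a median of 0.01 over 10 tested, with the knockout highest in 4 and lowest in 3 (0 at an unadjusted p under 0.05 and 0 by DESeq2). Gsr, which regenerates glutathione, had 21.9 CPM against 21.3 and 19.0, and Gss, which completes glutathione synthesis, had 12.1 against 4.13 and 9.19. Gpx7 and Gpx8, family members with cysteine in place of selenocysteine, had 21 and 22 reads in the knockout, none in control 5, and only 2 and 7 in control 6. Catalase (Cat) had 138 CPM against 193 and 204, and Sod2, the mitochondrial superoxide dismutase, had 120 against 107 and 84.3. Partners of the endoplasmic reticulum selenoproteins had a median of -0.07 over 12 tested, the knockout being highest in 2 and lowest in 4 (0 at an unadjusted p under 0.05 and 0 by DESeq2). Derl2, an export factor bound by Selenos, had 243 CPM against 402 and 301.

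In the lipid peroxidation and ferroptosis list of 9, the knockout was highest in 4 and lowest in 4, with a median of 0.03 (2 at an unadjusted p under 0.05, against 6.0% of all genes, and 1 by DESeq2, against 1.41%). Fth1, the ferritin heavy chain that stores iron, had 6941 CPM in the knockout, with 2555 in control 5 and 2887 in control 6. The knockout was far above both controls (log2 fold change 1.35, SE 0.28), with an adjusted p of 0.232 with edgeR and 0.00389 with DESeq2. Acsl4, which loads polyunsaturated fatty acids into the lipids that Gpx4 protects, had 55.0 CPM against 194 and 97.3 (-1.40, SE 0.52, edgeR adjusted p = 0.744). Gpx4 and Acsl4 thus lay on opposite sides of the controls. For Acsl4 the knockout was closer to control 6 than the controls were to each other.

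Genes with the most similar profile over the 3 libraries were sought among 3751 tested genes at a mean of 50 CPM or more, by the Euclidean distance between centred log2 CPM values. Nearest to Selenop were Pros1 (distance 0.0769), which encodes protein S, a secreted ligand of the TAM receptors, then Gpr35 (0.178) and Axl (0.185), which is a TAM receptor. Pros1 had 471 CPM in the knockout, with 2738 in control 5 and 2634 in control 6, and Axl had 18.9, 107 and 122. Nearest to Selenow were Igf2bp1 (0.0476), Eed (0.0549) and Usp12 (0.0622), with fitted log2 fold changes of 1.10, 0.99 and 0.98. With 3 libraries many genes can share a profile, so these distances describe the libraries and nothing more.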

How the data were processed

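The tools named per the submitters' processing notes are HTSeq 0.6.0, TopHat2 2.0.12 and Bowtie2 2.2.3, with build mm9. Of 18480 IDs matched to GENCODE M21, 89.9% have a deposited position identical to that annotation on GRCm38, so coordinates are on GRCm38. The authors deposited 2 tables of raw read counts per gene, each pairing knockout replicate 2 with 1 control, and the 16655 genes in both were analysed. Of these, 15236 passed edgeR's filterByExpr and were tested with edgeR 4.0.16 in R 4.3.3 (TMM factors 1.059, 0.963 and 0.981, quasi-likelihood F test, Benjamini-Hochberg, two-sided, threshold 0.05). The controls give the 1 residual degree of freedom, and the single knockout is taken to vary as they do. Each SE is the absolute log2 fold change divided by the square root of its F statistic, so it holds no knockout replication. Ratios over 1 control added a prior count of 2. DESeq2 1.42.0 was an alternative. The fit was tested on simulated data. The members and lists were chosen with earlier results of these data known. All 24 selenoprotein genes of the mouse were named by rule. For other lists the rule offered up to 5 genes, ranked by p among those averaging 5 CPM or more. Exon lengths, UGA codons and transcript sequences came from GENCODE M21.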

Additional observations from a re-analysis of the deposited data

How the results depend on the processing

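The number of genes called over all genes was 6, and it was 0 with DESeq2 size factors, 0 with upper-quartile factors, 0 with no filter on low counts (895, 818 and 948 at an unadjusted p under 0.05), 10 with genes in either table, 44 at 5 CPM or more in 2 libraries and 215 with the DESeq2 Wald test. The number of selenoprotein genes called was 0, and 1, Selenop, both with the filter at 5 CPM (adjusted p = 0.0247) and with the DESeq2 Wald test. Over these alternatives the edgeR or DESeq2 adjusted p of Selenop ranged from 3.26e-11 to 0.312 and its log2 fold change from -2.44 to -2.42. No fitted log2 fold change of the 10 changed sign, and the counts of 5 highest and 3 lowest held under every scaling and filter tried. Taking 1 control at a time gave no test. The median of the 10 was then 0.30 without control 5 and 0.14 without control 6. Over all genes tested it was 0.03 without control 5 and 0.14 without control 6. Single ratios of Gpx3 and Selenok changed sign. No paired analysis was possible because the knockout and control samples share no replicate number. With 1 knockout library, differences within the spread of the controls, as for Gpx1, Gpx3, Txnrd1, Selenok and Selenos, were not resolvable.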
